A study of Mus musculus with 6 samples.

Results

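The genes described here encode the degradative machinery of the lysosome and the 3 MiT/TFE transcription factors in the list. They were taken by symbol from a list of 36 made up of lysosomal hydrolases, their cofactors and lipid carriers, membrane proteins, proton pump subunits, and Mitf, Tfeb and Tfe3. All 36 were among the 18341 genes of the deposited table, and all 36 passed the filter on low values, a mean of 1 CPM (a read count relative to the library's total) or more, which 12824 genes passed. The libraries were RNA-seq of monocytes sorted from tumours that had grown under the skin of C57BL/6 mice for 13 days. In 3 libraries the injected cells overexpressed BAFF, the B cell activating factor, and in 3 they were control cells; the source label of both groups names B16.F10, a pigmented mouse melanoma line. The mice of both groups shared strain, tumour site and day. Their age and sex, the construct that drives BAFF, whether the cells were 1 clone, and whether the libraries came from separate mice are not given in the labels, so the p-values measure only the spread between these libraries.

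Lysosomes are acidic compartments in which macrophages and monocytes digest what they engulf, together with their own worn membranes and proteins. A proton pump, the V-ATPase, keeps them acidic, hydrolases with low pH optima break down sugars, lipids and proteins, and small carrier proteins lift lipids out of membranes for these enzymes. TFEB, TFE3 and MITF are related transcription factors that bind E-box sequences in the promoters of many lysosomal genes; MITF also drives pigment genes in melanocytes and, together with TFE3, genes of osteoclasts, which are bone-resorbing cells of the myeloid lineage. In bulk RNA a smaller number of cells of 1 type and less RNA per cell cannot be told apart.

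Promoter windows are shown first because some of them hold the E-box, the sequence that MiT/TFE factors bind in the promoters of many lysosomal genes. The windows come from RefSeq on mouse build GRCm38.p6, which need not be the authors' build, and run from 250 bases before to 50 after each start. Of the 36 genes 31 had an entry; Asah1, Npc1, Atp6v0d2, Atp6v1b2 and Atp6v1h had none. The letters TCACGTG, read on both strands, occurred in the windows of 8 of the 31 genes (25.8%), against 4.29% of all 27025 genes with a window and 7.37% of the 8849 tested genes that have one. The shorter E-box CACGTG, which lies inside TCACGTG, was found in the same 8 genes and in 12.17% of the tested genes. The longer GTCACGTG, which contains both, was found in 6 of the 31 and in 5.12% of tested genes. The longest form, the palindromic core of the CLEAR element, was found in 0 of the 31 genes and in 0.88% of tested genes. Another sequence bound by MITF, TCATGTG, was found in 6 of the 31 genes and in 2.87% of tested genes. A match describes the letters only and says nothing about binding.

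The 250 bases before the start are given for 3 genes whose levels differed between the groups and whose windows hold the E-box, 2 of them lower (Glb1 and Naglu) and 1 higher (Gla) in BAFF tumour libraries. Capitals mark TCACGTG on either strand.
Glb1 (chr9:114400828-114401077, + strand): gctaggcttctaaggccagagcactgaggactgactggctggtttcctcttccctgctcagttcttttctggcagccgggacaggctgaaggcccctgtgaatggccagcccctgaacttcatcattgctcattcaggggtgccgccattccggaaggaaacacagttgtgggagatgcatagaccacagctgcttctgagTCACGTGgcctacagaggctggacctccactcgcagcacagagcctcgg
Naglu (chr11:101069844-101070093, + strand): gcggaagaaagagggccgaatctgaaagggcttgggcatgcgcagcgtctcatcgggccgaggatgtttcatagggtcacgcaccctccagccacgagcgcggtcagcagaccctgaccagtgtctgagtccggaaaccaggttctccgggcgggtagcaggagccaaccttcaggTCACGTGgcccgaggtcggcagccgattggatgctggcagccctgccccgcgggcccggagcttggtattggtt
Gla (chrX:134601006-134601255, - strand): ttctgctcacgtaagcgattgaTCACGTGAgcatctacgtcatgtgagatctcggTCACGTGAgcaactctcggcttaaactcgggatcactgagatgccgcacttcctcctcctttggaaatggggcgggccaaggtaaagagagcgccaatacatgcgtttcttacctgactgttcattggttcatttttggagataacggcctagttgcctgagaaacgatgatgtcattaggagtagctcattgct
Both matches in Gla read TCACGTGA, which holds the motif on both strands.

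For 4 genes that hold the motif and whose levels did not pass the test, a shorter stretch is given around 1 match each, and that match alone is in capitals. In Mcoln1 and Atp6v1a the base after the capitals is a, so that the opposite strand reads TCACGTG there too, and the Lamp1 stretch holds a further match on the opposite strand.
Mcoln1 (chr8:3500453-3500499, + strand): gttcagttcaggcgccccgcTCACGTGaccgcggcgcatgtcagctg
Lamp1 (chr8:13159079-13159125, + strand): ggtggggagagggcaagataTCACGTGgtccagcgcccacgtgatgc
Gaa (chr11:119267802-119267848, + strand): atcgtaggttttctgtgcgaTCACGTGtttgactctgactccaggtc
Atp6v1a (chr16:44139365-44139411, - strand): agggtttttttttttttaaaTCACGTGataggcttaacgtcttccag
Lamp1 had 4 such E-boxes before its start and Mcoln1 had 2, while the single one of Atp6v0d1 lay after the start. The motif was therefore present in genes that were higher, lower and not called. It occurred in 3 of the 9 genes called between the groups that have a window and in 5 of the 22 that were not called.

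The libraries differed in depth and in overall scale, and this bears on every value below. Low values fall on steps of 1 read, and by these steps 1 CPM stood for 9.64 to 27.6 reads in BAFF tumour libraries and for 4.72 to 27.3 reads in control libraries, and the listed genes summed to 39.8% to 66.1% of the CPM total. Control tumours 2 and 3, the shallowest, also held 27016 and 43052 CPM of the ribosomal RNA gene CT010467.1, against 299 to 5880 CPM in the other libraries. On the deposited scale the median of the 36 genes, as the log2 deviation from each gene's own mean, was 0.48 in control tumour 1 and -0.55 in control tumour 3. Deposited values were therefore divided by median-of-ratios size factors, which ranged from 0.670 to 1.27, and the result is called scaled CPM. After this the same medians lay between -0.07 and 0.13. Fold changes are from limma on log2(scaled CPM + 1), with p-values adjusted by Benjamini-Hochberg over all 12824 genes and a threshold of 0.05. Without scaling, the median log2 fold change over all tested genes was 0.23, against 0.01 with it. On the deposited scale limma called 0 of the 36 genes, against 5.31% of all tested genes (1.81% higher and 3.5% lower); 3 of the 36, Gla, Gm2a and Arsb, had an unadjusted p under 0.05 there.

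**Figure D1:**
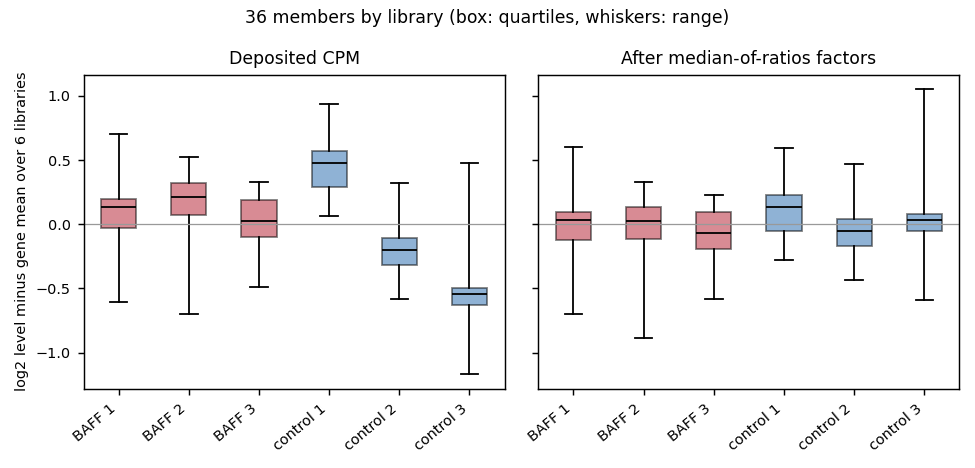
Levels of the 36 genes in each library, as log2 level minus the gene's mean over the 6 libraries (vertical axis), before and after scaling; boxes are quartiles, black lines medians and whiskers the full range over the 36 genes. On the deposited scale the medians run from -0.55 in control tumour 3 to 0.48 in control tumour 1, and after scaling from -0.07 to 0.13.

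Lysosomal genes were called in both directions. After scaling 7 of the 36 were lower and 3 were higher in BAFF tumour libraries, 27.8% in all, where 17.1% of all tested genes were called (7.18% higher and 9.91% lower). The other 26 did not pass. The count of 10 became 4 without BAFF tumour 1, 3 without BAFF tumour 2, 7 without control tumour 2 and 6 without any 1 of the other 3 libraries. The share called higher is close to that over all tested genes. Without BAFF tumour 1 or BAFF tumour 2, 0 were higher. Only 1 was higher without control tumour 2, without control tumour 3 or with upper-quartile factors. The median log2 fold change of the 36 was -0.04, against 0.01 over all tested genes, and 17 lay above 0 and 19 below. The groups did not overlap for 17 of the 36, 8 of them higher and 9 lower in BAFF tumour libraries, against 35.2% of all tested genes (17.3% higher and 17.8% lower). That holds for scaled CPM. For deposited CPM only Arsb (lower), Gm2a and Npc2 (both higher) were separate, and the groups overlapped for the rest of the 36. The share over all tested genes was not computed on that scale. Their summed level was 10680 to 11520 scaled CPM in BAFF tumour libraries and 10040 to 10620 in controls. Psap supplied much of that sum, at 5283 to 5804 and 4798 to 5027 scaled CPM. Glb1, Naglu and Arsb, all hydrolase genes, had the lowest adjusted p-values of the 36 and passed with any 1 library left out (adjusted p up to 0.0215).

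**Figure D2:**
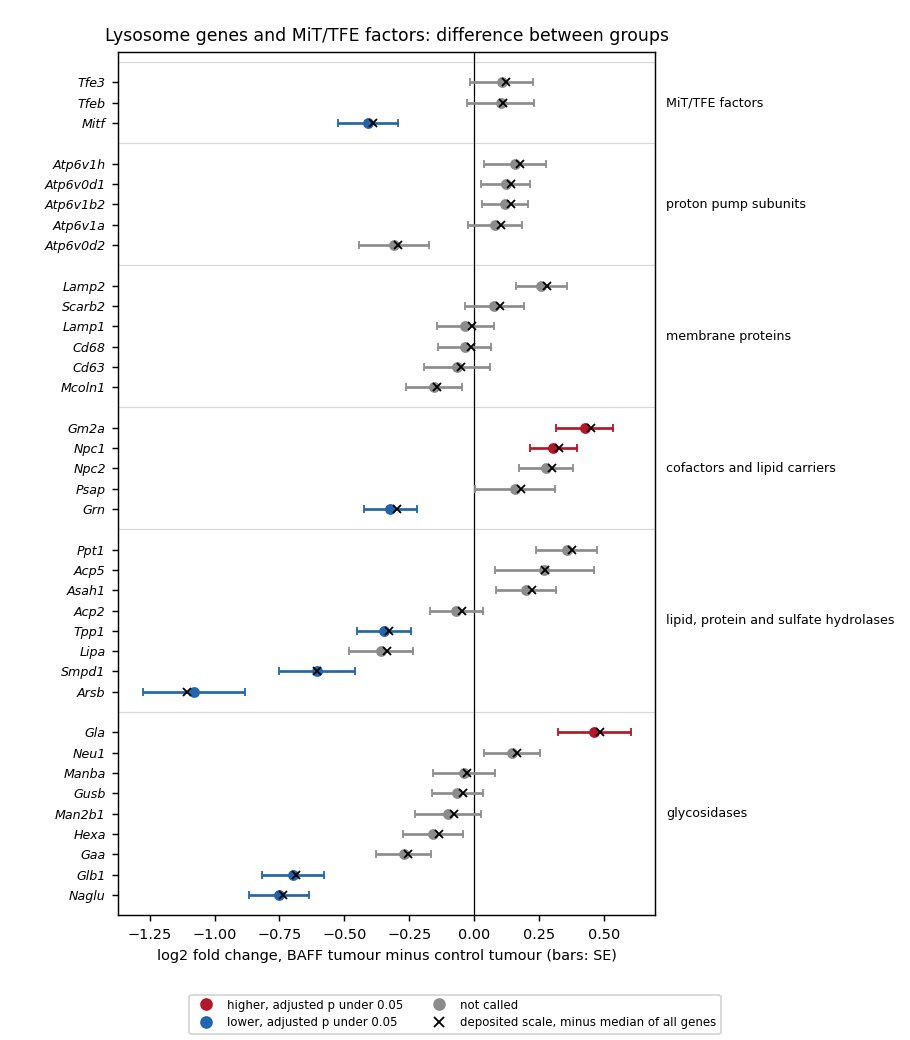
Log2 fold change of each gene (horizontal axis, BAFF tumour minus control tumour; circles with SE bars, scaled CPM), grouped by role; red and blue circles passed the test, grey ones did not. Crosses give the fold change on the deposited scale after subtracting the median of all tested genes, from -1.11 for Arsb to 0.48 for Gla. Scaling moves these genes by nearly the same amount, which the subtraction removes. The crosses must therefore lie close to the circles and are no separate check.

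Among the 9 glycosidase genes, which encode enzymes that trim sugars from glycoproteins, glycolipids and glycogen, 2 were lower and 1 was higher. That is 33.3% called, against 17.1% of all tested genes (9.91% lower and 7.18% higher). Glb1 encodes beta-galactosidase, which removes galactose from gangliosides and keratan sulfate. It stood at 17.2, 20.2 and 20.7 scaled CPM in BAFF tumours 1, 2 and 3 and at 35.4, 29.3 and 31.3 in control tumours 1, 2 and 3. Each control library was above each BAFF tumour library. Glb1 was 1.62-fold lower (log2 fold change -0.70 ± 0.12, SE; limma adjusted p = 0.00213). The gene Tmppe shares 5.5% of its exon bases in GENCODE M21.

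Naglu encodes alpha-N-acetylglucosaminidase, an enzyme of heparan sulfate breakdown. Its levels were 21.7, 21.9 and 17.8 scaled CPM in BAFF tumours and 34.3, 36.96 and 33.8 in control tumours, and the groups did not overlap. The difference was 1.68-fold (log2 -0.75 ± 0.12, limma adjusted p = 0.00108).

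Gla encodes alpha-galactosidase A, which removes the terminal galactose of globotriaosylceramide. In contrast to the preceding pair it was higher, at 145, 151 and 128 scaled CPM in BAFF tumour libraries against 113, 118 and 79.6 in controls. The groups did not overlap, and control tumour 3 was well below the other controls. Gla was 1.38-fold higher (log2 0.46 ± 0.14, limma adjusted p = 0.0422). Leaving out BAFF tumour 1, BAFF tumour 2 or control tumour 3 ended the call (adjusted p up to 0.145; log2 0.28 without control tumour 3), as did scaling by upper-quartile factors (adjusted p = 0.0727).

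The remaining 6 glycosidase genes did not pass. Gaa, the acid alpha-glucosidase that degrades glycogen, stood at 33.1, 36.1 and 38.6 scaled CPM against 45.5, 39.9 and 45.2, lower without overlap (log2 -0.27 ± 0.11, limma adjusted p = 0.106). Hexa (the alpha subunit of beta-hexosaminidase), Gusb (beta-glucuronidase), Man2b1 and Manba (alpha- and beta-mannosidase) and Neu1 (sialidase) overlapped between the groups. Their log2 fold changes ran from -0.16 ± 0.11 for Hexa to 0.15 ± 0.11 for Neu1.

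Of the 8 genes for lipid, protein, sulfate and phosphate ester hydrolases, 3 were lower and 0 higher (37.5% called, against 17.1% of all tested genes). Arsb encodes arylsulfatase B, which takes sulfate from dermatan and chondroitin sulfate. It was scarce, at 2.72, 2.38 and 3.33 scaled CPM in BAFF tumour libraries and 6.67, 5.59 and 9.16 in controls, where 3 reads correspond to 0.109 to 0.636 CPM on the deposited scale. Every control value was above every BAFF tumour value, also for deposited CPM. At 2.11-fold lower (log2 -1.08 ± 0.20, limma adjusted p = 0.00302) it had the widest difference of the 36 genes. Predicted genes on the opposite strand cover 39.9% of its exon bases in GENCODE M21, and the library kit does not mark strand, so its reads are uncertain.

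Smpd1 encodes acid sphingomyelinase, which makes ceramide. It stood at 10.6, 8.45 and 7.58 scaled CPM in BAFF tumour libraries and at 14.4, 13.05 and 14.2 in controls. The groups did not overlap, and Smpd1 was 1.52-fold lower (log2 -0.60 ± 0.15, limma adjusted p = 0.0147). It missed the threshold without BAFF tumour 2 or 3 (adjusted p up to 0.0608).

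Tpp1 encodes tripeptidyl peptidase, a protease of the lysosomal lumen. Levels of 69.5, 67.3 and 59.9 scaled CPM in BAFF tumour libraries lay below the 89.6, 85.7 and 75.8 of controls, a 1.27-fold difference (log2 -0.35 ± 0.10, limma adjusted p = 0.0398). With 1 library left out, the call held only without control tumour 3; the adjusted p reached 0.115 in the others.

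Ppt1, the thioesterase that strips palmitate from proteins, was close to the threshold on the other side, at 126, 143 and 135 scaled CPM against 119.9, 88.8 and 108. Its groups did not overlap (log2 0.36 ± 0.12, limma adjusted p = 0.0569). It passed without control tumour 1 (log2 0.45, adjusted p = 0.0302), and its log2 fold change was 0.24 without control tumour 2 (adjusted p = 0.214). Lipa, lysosomal acid lipase, which frees cholesterol and fatty acids from esters, stood at 117, 147 and 122 scaled CPM against 190.0, 143 and 163 (log2 -0.36 ± 0.12, limma adjusted p = 0.0712). Its groups overlapped at BAFF tumour 2 and control tumour 2, and it passed as lower with upper-quartile factors (adjusted p = 0.0456) and in 1 of the 6 fits without 1 library. Asah1 (acid ceramidase), Acp2 and Acp5 (acid phosphatases) also overlapped, with log2 fold changes of 0.20, -0.07 and 0.27. The Acp5 value was highest in BAFF tumour 1, at 19.8 scaled CPM against 9.63 to 13.6 elsewhere.

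Of the 5 genes for cofactors and lipid carriers, 2 were higher and 1 lower, and the groups did not overlap for any of the 5; over all tested genes 17.1% were called and 35.2% did not overlap. Gm2a encodes the GM2 activator, which presents ganglioside GM2 to beta-hexosaminidase. It stood at 465, 449 and 466 scaled CPM in BAFF tumour libraries and at 327, 315 and 389 in controls, with no overlap on either scale. Gm2a was 1.34-fold higher (log2 0.43 ± 0.11, limma adjusted p = 0.0187). It kept this call without BAFF tumour 3 or control tumour 3 but lost it without any of the other 4 libraries (adjusted p up to 0.0804).

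Npc1, the membrane protein that passes cholesterol out of the lysosome, was higher at 155, 145 and 144 scaled CPM against 124, 113 and 122. That is a 1.24-fold difference without overlap (log2 0.31 ± 0.09, limma adjusted p = 0.0397). Leaving out any library but BAFF tumour 3 ended the call (adjusted p up to 0.141), and so did upper-quartile factors (adjusted p = 0.0777). Npc2, the soluble protein that hands cholesterol to NPC1, did not pass although its groups did not overlap, at 643, 691 and 643 scaled CPM against 514, 587 and 532 (log2 0.28 ± 0.11, adjusted p = 0.0970). Psap, the precursor of the saposins that activate sphingolipid hydrolases, did not pass either (log2 0.16 ± 0.16, adjusted p = 0.543), again with no overlap between the groups.

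Grn, which encodes progranulin, a secreted and lysosomal protein whose loss impairs lysosomal function, went the other way. It stood at 501, 472 and 471 scaled CPM in BAFF tumour libraries and at 632, 598 and 576 in controls. The groups did not overlap and Grn was 1.25-fold lower (log2 -0.32 ± 0.10, limma adjusted p = 0.0463), but the call did not survive leaving out any 1 of the 6 libraries (adjusted p up to 0.135), nor testing all genes with no filter (adjusted p = 0.0722).

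**Figure D3:**
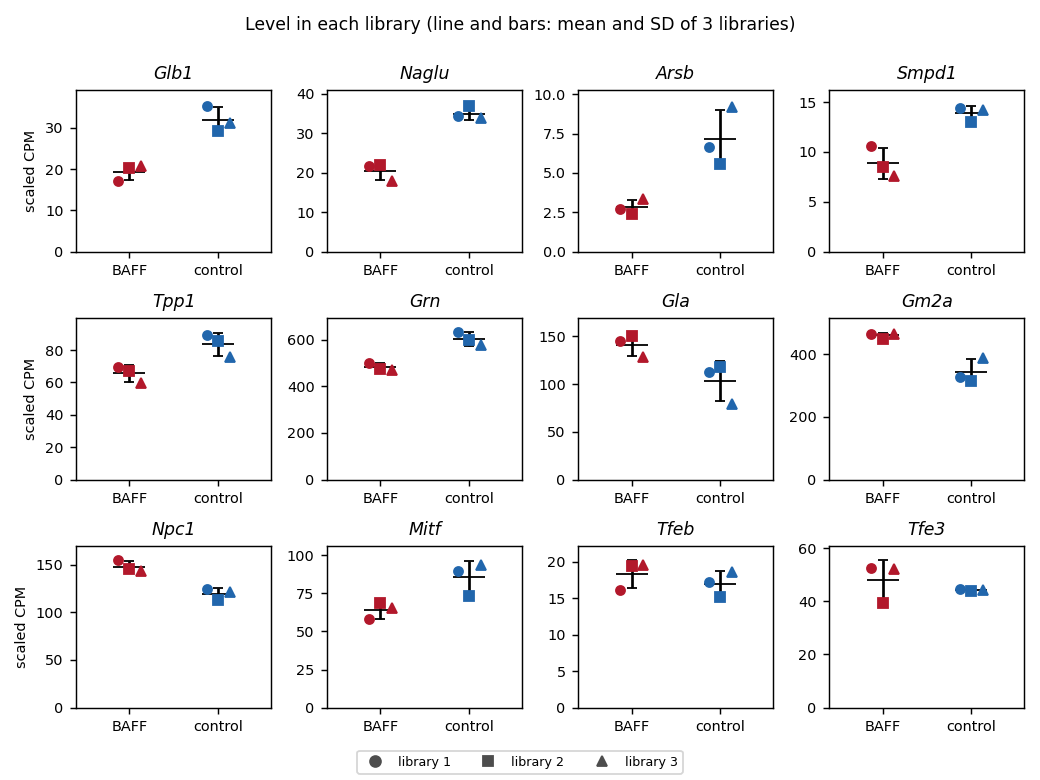
Scaled CPM (vertical axis, starting at 0) of the 10 genes called between the groups and of Tfeb and Tfe3 in each library. Symbols mark library 1, 2 or 3 of a group, and the labels state no pairing. The black line and bars give the mean and SD of 3 libraries. The groups do not overlap for the 10 called genes, whereas Tfeb and Tfe3 overlap.

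Of the 6 membrane protein genes 0 passed in limma, and 1, Lamp2, had an unadjusted p under 0.05. Lamp1, which encodes a major glycoprotein of the lysosomal membrane, stood at 637 to 710 scaled CPM in BAFF tumour libraries and at 667 to 760.5 in controls (log2 -0.03 ± 0.11, adjusted p = 0.875). Cd68, the macrophage glycoprotein macrosialin, stood at 348 to 413 and 393 to 402 scaled CPM (log2 -0.04 ± 0.10, adjusted p = 0.852). Lamp2, whose protein also serves in autophagy, was higher without overlap but did not pass, at 405, 417 and 423 against 364, 351 and 326 (log2 0.26 ± 0.10, adjusted p = 0.0909). Mcoln1, a calcium channel of the lysosome, lay slightly lower without overlap, at 22.3 to 23.9 against 24.3 to 27.5 (log2 -0.16 ± 0.11, adjusted p = 0.366). Scarb2, the receptor that brings glucocerebrosidase to lysosomes, and the tetraspanin gene Cd63 overlapped, with log2 fold changes of 0.08 and -0.07.

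Of the 5 proton pump genes 0 passed in limma, 1 (Atp6v0d2) had an unadjusted p under 0.05, and 4 had a small positive log2 fold change, from 0.08 ± 0.10 for Atp6v1a to 0.16 ± 0.12 for Atp6v1h. Atp6v1b2, a subunit of the ATP-hydrolysing head, was higher without overlap at 201 to 211 against 188 to 192 scaled CPM (log2 0.12 ± 0.09, adjusted p = 0.402). The d subunit of the membrane sector has a general form, Atp6v0d1, and a form typical of osteoclasts and macrophages, Atp6v0d2. Atp6v0d2 stood at 30.4, 26.6 and 21.3 scaled CPM against 33.7, 33.6 and 29.4 (log2 -0.31 ± 0.13, adjusted p = 0.146), and Atp6v0d1 at 96.6, 90.5 and 84.8 against 80.8, 87.1 and 81.5 (log2 0.12 ± 0.09, adjusted p = 0.426). Per kilobase of exon in GENCODE M21 the mean over the 6 libraries was 48.5 scaled CPM for Atp6v0d1 and 10.7 for Atp6v0d2.

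Of the MiT/TFE factors, Mitf alone passed, as lower. It stood at 57.9, 68.8 and 65.4 scaled CPM in BAFF tumour libraries and at 89.6, 73.5 and 93.8 in controls. The groups did not overlap, though BAFF tumour 2 and control tumour 2 lay close together. Mitf was 1.33-fold lower (log2 -0.41 ± 0.12, limma adjusted p = 0.0305). With 1 library left out, the call held only without control tumour 2 (adjusted p up to 0.123 in the others). Tfeb stood at 16.1, 19.4 and 19.5 scaled CPM against 17.2, 15.2 and 18.6 (log2 0.10 ± 0.13, adjusted p = 0.647). Tfe3 stood at 52.7, 39.4 and 52.1 against 44.6, 43.8 and 44.2 (log2 0.11 ± 0.12, adjusted p = 0.602), and for both factors the groups overlapped. Per kilobase of exon, Mitf had a mean of 12.1 scaled CPM over the 6 libraries (SD 2.3), Tfe3 4.98 (SD 0.56) and Tfeb 3.12 (SD 0.32), with no overlap between neighbours in this order. The exon lengths join all annotated isoforms and need not be those of the authors.

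Ratios of gene pairs within a library do not depend on library scale. A set of 7 pairs with a shared function was compared by the exact permutation test on log2 ratios (two-sided), whose smallest possible p with 3 against 3 libraries is 0.1, so none could pass. The pairs were chosen after the values were seen. The ratio of Mitf to Tfeb in CPM was 3.596, 3.55 and 3.35 in BAFF tumour libraries and 5.22, 4.83 and 5.03 in controls, without overlap (exact p = 0.1, adjusted over the 7 pairs 0.175). Gm2a to Hexa was 2.46, 1.97 and 2.53 against 1.33, 1.56 and 1.75, and Lamp2 to Lamp1 was 0.578, 0.588 and 0.664 against 0.479, 0.526 and 0.486, both higher without overlap at the same p-values. Atp6v0d2 to Atp6v0d1 was lower without overlap, at 0.314, 0.294 and 0.251 against 0.418, 0.385 and 0.361, again at exact p = 0.1. Npc2 to Npc1, Psap to Asah1 and Mitf to Tfe3 overlapped between the groups (exact p = 0.9, 0.7 and 0.2).

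Transcripts of melanoma cells and of macrophages differed between the same libraries, and both cell types also use lysosomal genes and Mitf. Of 10 tested melanoma markers 9 were lower and 0 higher (90% called, against 17.1% of all tested genes, median log2 -1.91), and 9 were lower on the deposited scale too. Their summed level was 81.0 to 166 scaled CPM in BAFF tumour libraries and 499 to 645 in controls, and of the 11 listed, 0 were at 0 in all libraries. Dct, a melanin synthesis gene and the most abundant, stood at 43.7 ± 13.5 against 217 ± 29.1 scaled CPM (SD, n = 3; log2 -2.32, limma adjusted p = 3.36e-05), and Mc1r, Trpm1 and Tyrp1 fell by 2.08, 1.94 and 2.10 on the log2 scale. Exons of Mc1r overlap a predicted gene on the other strand. Macrophage markers were lower in 6 of 10 and higher in 0 (60% called, median log2 -0.61), with sums of 2586 to 2916 against 3924 to 4960 scaled CPM. The hyaluronan receptor gene Lyve1 (log2 -4.07) and the complement genes C1qa (-1.03), C1qc (-0.89) and C1qb (-0.72) were among them, and Mrc1, the mannose receptor gene and the most abundant, was at 599.7 ± 56.7 against 851 ± 88.0. Without scaling 1 of the 10 was lower, Lyve1, and the other 5 lost their calls. Mrc1 did not pass when BAFF tumour 1 or control tumour 2 was left out (adjusted p up to 0.0743). The part of these cells in the levels of Mitf, Glb1, Naglu, Arsb, Smpd1, Tpp1 and Grn was not tested.

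Monocyte markers, which check the sort, were present in every library, with sums of 4511 to 4801 scaled CPM in BAFF tumour libraries and 3316 to 3759 in controls. Of 8 tested 4 were higher and 0 lower (50% called, against 17.1% of all tested genes, median log2 0.43). The count was 1 on the deposited scale, where only Vcan passed, 1 without BAFF tumour 2, and 3 with upper-quartile factors, where Ccr2 did not pass (adjusted p = 0.0506). The most abundant, the endotoxin co-receptor gene Cd14, stood at 1215 ± 212 against 773 ± 55.0 scaled CPM (log2 0.64), with Vcan (0.72), Plac8 (0.50) and the chemokine receptor gene Ccr2 (0.51) also higher. Cd14 and Plac8 missed without BAFF tumour 2, and Ccr2 without any library but control tumour 3 (adjusted p up to 0.127). Neutrophil markers summed to 164 to 223 scaled CPM against 98.2 to 153, with 2 of 7 higher (28.6% called), namely Csf3r (log2 0.49, the most abundant) and Retnlg (0.63). Which neutrophil markers passed depended on the scale. For deposited CPM 4 of 7 were higher, namely S100a8, S100a9, Cxcr2 and Lcn2, and Csf3r and Retnlg were not among them. Lcn2 had a mean of 0.979 CPM in controls and passed the filter of 1 CPM only through BAFF tumour libraries. It stood at 10.05 CPM in BAFF tumour 1 and at 1.70 and 1.48 in BAFF tumours 2 and 3, so its call is description only. With upper-quartile factors 0 of 7 passed in limma (adjusted p = 0.0563 for Csf3r and 0.0690 for Retnlg). Csf3r and Retnlg missed without BAFF tumour 2 or control tumour 3, Csf3r also without BAFF tumour 3 or control tumour 2, and for Retnlg the same held of BAFF tumour 1 and of control tumour 1 (p up to 0.199 after adjustment). Lymphocyte markers summed to 2.02 to 5.46 scaled CPM over 5 genes, of which only Nkg7 was tested (log2 0.13, adjusted p = 0.802). The part of these shifts in Gla, Gm2a and Npc1, which rose, was not tested.

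**Figure D4:**
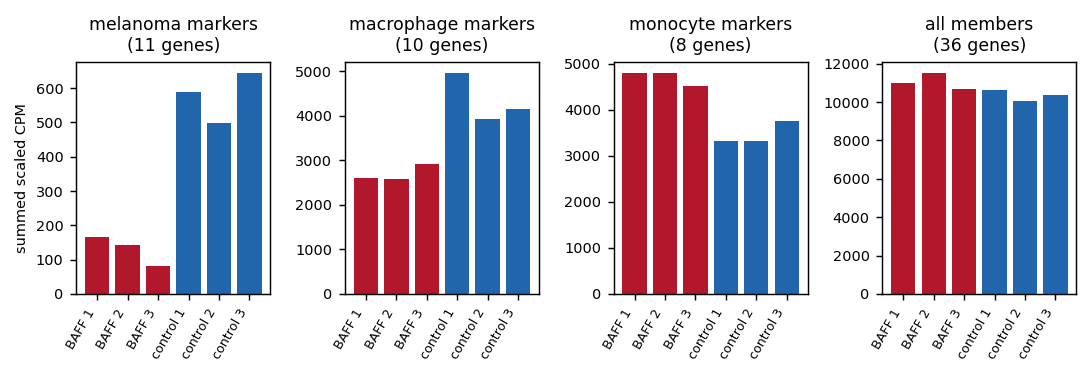
Summed scaled CPM of marker lists and of the 36 lysosome and MiT/TFE genes in each library (bars from 0; red BAFF tumour, blue control tumour). Melanoma markers reach 81.0 to 166 in BAFF tumour libraries and 499 to 645 in controls. The 36 genes sum to 10680 to 11520 in BAFF tumour libraries and 10040 to 10620 in controls, and Psap supplies much of that sum.

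Of 6 dendritic cell markers 1 was higher (16.7% called, against 17.1% of all tested genes). It was the cytokine receptor gene Flt3 (log2 0.87), which did not pass without BAFF tumour 1 (limma adjusted p = 0.0533). The most abundant, Ccr7, did not pass (log2 0.23). Of 5 stromal markers (40% called) Pecam1 was higher (log2 0.63) and Col1a1 lower (-1.14), and the most abundant, Col3a1, did not pass (log2 -0.56). Both calls depended on single libraries: Pecam1 did not pass when BAFF tumour 1, BAFF tumour 2 or control tumour 1 was left out (adjusted p up to 0.0778), nor Col1a1 when BAFF tumour 2, BAFF tumour 3 or control tumour 1 was (up to 0.159). Neither passed for deposited CPM. Osteoclast genes were included because MITF and TFE3 act in those cells and because Acp5 and Atp6v0d2 mark them. Of 6 tested, 1 was higher (16.7% called, again beside 17.1% of all tested genes). This was the fusion gene Ocstamp at 5.46 to 5.92 against 2.02 to 4.42 scaled CPM (log2 0.78, limma adjusted p = 0.0281). With 1 library left out it passed only without control tumour 3 (adjusted p up to 0.0921 in the others). The most abundant, the transcription factor gene Nfatc1, did not pass (log2 -0.19).

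The pathway around the 36 genes was followed in 6 further lists. Of all tested genes 17.1% were called (7.18% higher and 9.91% lower), and each of these lists had a smaller share called. In a list of other hydrolases and the enzymes that process them, 3 of 35 tested were lower and 0 higher (8.57%, median log2 -0.12). Man2b2, another alpha-mannosidase, was lower at 24.4 to 28.3 against 37.5 to 38.4 scaled CPM (log2 -0.54 ± 0.10, limma adjusted p = 0.00424). Sgsh, a sulfatase that acts in heparan sulfate breakdown as Naglu does, was lower by 0.67 and Rnaset2b, a lysosomal ribonuclease, by 0.37 on the log2 scale, and both are uncertain, since another gene shares 21.6% of the exon bases of Sgsh and 20.4% of those of Rnaset2b, which also has a near-identical copy, Rnaset2a. Sgsh did not pass when BAFF tumour 2, control tumour 1 or control tumour 3 was left out (adjusted p up to 0.117). Rnaset2b passed only without BAFF tumour 3 or control tumour 3 (up to 0.113 in the others). The count of lower genes in the list was 5 with upper-quartile factors, and on the deposited scale limma called 0, with 0 at an unadjusted p under 0.05.

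Among other lysosomal membrane proteins, 2 of 30 tested were higher and 1 lower (10%, median log2 0.03). Cln3, a membrane protein mutated in juvenile neuronal ceroid lipofuscinosis, rose from 25.3 to 27.2 in controls to 35.6 to 40.2 scaled CPM (log2 0.48 ± 0.10, limma adjusted p = 0.00799). Slc15a3, a lysosomal peptide and histidine transporter gene, was higher (log2 0.38) and Tpcn1, a two-pore cation channel gene, lower (log2 -0.63). With 1 library left out, Slc15a3 passed only where that was library 2 of either group (adjusted p up to 0.0954 in the others), and Tpcn1 failed only without BAFF tumour 2 (0.0547). With upper-quartile factors 1 was higher and 2 lower, and Slc15a3 did not pass (adjusted p = 0.0523); on the deposited scale limma called 0 of the 30, with 2 at an unadjusted p under 0.05. Another gene on the opposite strand shares 28.1% of the exon bases of Slc15a3 and 7.6% of those of Cln3.

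Other proton pump subunits and their partners gave 2 of 18 lower and 0 higher (11.1%, median log2 0.16). Atp6v0e2, a minor form of the e subunit, stood at 0.485 to 0.925 against 2.14 to 3.79 scaled CPM (log2 -1.12 ± 0.22, limma adjusted p = 0.00478). It passed the filter of 1 CPM only through the controls, so its calls on both scales are description only. In BAFF tumour libraries it lay near the floor, where 3 reads correspond to 0.109 to 0.311 CPM on the deposited scale. Dmxl2, whose protein helps assemble the pump, was lower (log2 -0.45) and with 1 library left out passed only without BAFF tumour 1 (adjusted p up to 0.154 in the others). On the deposited scale 1 of the 18, Atp6v0e2, was lower, and without BAFF tumour 3 another 4 of the list passed as higher.

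In the list of MiT/TFE regulators and partners, 1 of 29 tested was higher and 1 lower (6.9%, median log2 0.06). Fnip2, a partner of folliculin in the nutrient signal that holds TFEB in the cytoplasm, was higher at 250.4 to 317 against 188 to 234 scaled CPM (log2 0.42 ± 0.12, limma adjusted p = 0.0340), which did not hold when BAFF tumour 1, BAFF tumour 2 or control tumour 3 was left out (up to 0.126), nor with upper-quartile factors (0.0613). Ppargc1a, a coactivator gene that TFEB induces in liver and MITF in melanoma cells, was lower (log2 -1.14 ± 0.22, limma adjusted p = 0.00418). It was lower together with the melanoma markers given above, and the part of melanoma cells in its level was not tested. On the deposited scale limma called 0 of the 29, with 2 at an unadjusted p under 0.05.

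Autophagy genes were higher in 5 of 33 tested and lower in 0, with a median log2 of 0.15. The share called was 15.2%, against 17.1% of all tested genes (7.18% higher and 9.91% lower). Tax1bp1, a cargo receptor, stood at 179.6 to 188 against 119 to 136 scaled CPM (log2 0.52 ± 0.09, limma adjusted p = 0.00275). Uvrag (log2 0.37), Map1lc3b (0.39), Atg3 (0.35) and Atg16l1 (0.34), which act in vesicle formation, were also higher. With 1 library left out the count of higher genes was 1 without BAFF tumour 1 or control tumour 3, 2 without BAFF tumour 2 or control tumour 2, 3 without BAFF tumour 3 and 4 without control tumour 1. On the deposited scale it was 0 in limma, with 4 genes at an unadjusted p under 0.05. With upper-quartile factors 3 were higher and 1 lower, and Atg3 (adjusted p = 0.0621) and Atg16l1 (0.0756) did not pass. Tax1bp1 kept its call whichever library was left out, Uvrag lost it without BAFF tumour 1 or control tumour 3, Map1lc3b kept it only without BAFF tumour 3 or control tumour 1, and Atg3 and Atg16l1 lost it each time. A predicted gene on the other strand shares 17.6% of the exon bases of Uvrag.

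In sorting to the lysosome, 3 of 33 tested were lower and 1 higher (12.1%, median log2 -0.0025). Sort1, sortilin, a receptor that carries prosaposin and acid sphingomyelinase to lysosomes, was lower at 26.2 to 26.6 against 44.1 to 56.6 scaled CPM (log2 -0.91 ± 0.11, limma adjusted p = 0.000291). Its relative Sorl1 was higher at 101 to 118 against 45.8 to 71.0 (log2 0.90 ± 0.15, limma adjusted p = 0.00145) and passed on the deposited scale as well, where of the lower genes Rab38 alone passed. Rab38 (log2 -1.30) and Rab27a (-0.53), Rab proteins of melanosomes and related organelles, were lower together with the melanoma markers given above. The part of melanoma cells in their levels was not tested. Rab27a did not pass when BAFF tumour 2, control tumour 1 or control tumour 3 was left out (adjusted p up to 0.0780).

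**Figure D5:**
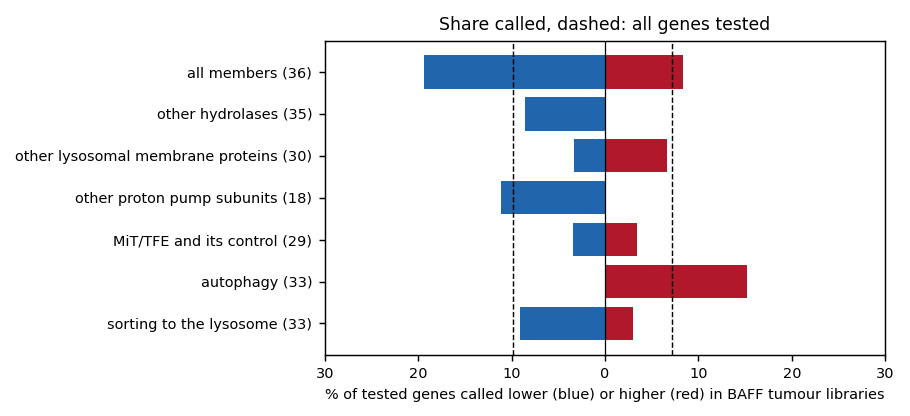
Share of tested genes in each list called lower (bars to the left) or higher (bars to the right) in BAFF tumour libraries after scaling, in percent; the number tested is in parentheses and dashed lines give the shares over all 12824 tested genes, 9.91% lower and 7.18% higher. The 36 genes reach 27.8% in both directions together, and the autophagy list reaches 15.2%, all higher, against 17.1% of all tested genes in both directions.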

How the data were processed

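Sorted tumour monocytes were sequenced from TruSeq RNA v2 libraries (per the labels' protocols). Tools named in the submitters' processing notes are Partek, STAR 2.4.1d and Bowtie2 2.2.5, with no roles; the build, annotation and counting rule were not given in the sources used here. The authors deposited CPM, a unit recognised from the values: 82.08% to 87.59% of values under 2 CPM came within 0.02 of whole reads, too few to run a count model. The second control column is misspelt and was assigned by its name. Scaling used median-of-ratios factors over genes averaging at least 1 CPM, because the listed genes hold unequal shares of the total. Limma-trend (limma 3.58.1, R 4.3.3) tested log2(scaled CPM + 1), which understates the change of scarce genes, and was tested on simulated data. The simulation gave all genes the same spread between replicates, so it does not measure error rates in these libraries. Replicate libraries differed beyond sampling noise. Chi-square per degree of freedom was 10.1 to 20 between BAFF tumour libraries and 8.17 between control tumours 2 and 3. It was 80.7 between control tumours 1 and 2 and 150 between control tumours 1 and 3. Alternatives were the deposited scale, upper-quartile factors, pseudocount, filters, a replicate block and leaving out libraries. The genes and lists were chosen with earlier results of these data known. All 36 genes were accounted for; from other lists the text names up to 4 called genes per direction by p-value and the most abundant marker, and Atg16l1 was added after its values were seen. List entries with no row of that symbol are not analysed here. Depth and floors cover counting error only.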

Additional observations from a re-analysis of the deposited data

How the results depend on the processing

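On the deposited CPM scale 681 genes were called and 0 of the 36 lysosome and MiT/TFE genes (3 at an unadjusted p under 0.05, limma), with a median log2 fold change of 0.22 for the 36. Hexa (0.093), Gusb (0.19), Man2b1 (0.15), Manba (0.20), Acp2 (0.18), Lamp1 (0.22), Cd63 (0.18), Cd68 (0.22) and Mcoln1 (0.086), none of which passed on either scale, changed sign there; the median of all genes lies 0.23 above 0 on that scale. Upper-quartile factors gave a median of -0.083 and called 9 of the 36, with 2080 genes in all. With control tumour 1 as the only control, a setting chosen after seeing the data in which that lone library is assumed to vary like the BAFF tumour libraries, 1100 genes and 3 of the 36 passed, with a median of -0.092. Asah1 (-0.038), Scarb2 (-0.13) and Atp6v1a (-0.024) changed sign in that setting. Without scaling, genes that were not scarce moved up by nearly the same amount. By arithmetic this turned the sign of genes lying slightly below 0. The cause of the sign changes with control tumour 1 as the only control was not tested.

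Leaving out 1 library gave 1349 to 1830 called genes, 3 to 7 of the 36, and a median of -0.040 to 0.035. Genes among those not called that changed sign in such fits were Man2b1 (-0.24 to 0.021), Manba (-0.12 to 0.037), Lamp1 (-0.070 to 0.022), Cd63 (-0.18 to 0.024), Cd68 (-0.082 to 0.045) and Scarb2 (-0.040 to 0.17). A pseudocount of 0.1 called 10 of the 36, testing all genes called 9, and requiring a mean of 5 CPM called 9 of 35. The fit with the replicate number as a block called 1940 genes and 7 of the 36. Deviations of same-numbered libraries correlated at -0.05, 0.05 and -0.04, and those of differently numbered libraries at -0.05 to 0.09. These values show no sign of pairing by number but cannot exclude it. Depth limits scarce genes such as Arsb: 1 CPM stands for 4.72 to 27.6 reads.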
